A study of Homo sapiens with 18 samples.

Results

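The comparison described here is that of HEK-293T cells transfected with split Csy4 and kept in DMSO, without the trigger of the split enzyme, against cells given DMSO alone. It rests on 6 of the 18 libraries of the series, chosen by their labels: 3 of untriggered split Csy4 and 3 of DMSO. HEK-293T is a human embryonic kidney line that carries a viral large T antigen. The labels give 70000 plated cells for each library. Split Csy4 cells received DMSO 6 hours after transfection, and the DMSO of both groups is labelled 0.5 µM, which may or may not be an amount of solvent. Further libraries served for comparison, 3 in each group: DMSO-treated cells with full-length Csy4, cells with split Csy4 given 0.5 µM grazoprevir (the triggered enzyme), both treated 6 hours after transfection, and 0.5 µM grazoprevir in cells without a construct. No group used here was transfected without a Csy4 construct, so that transfection, the construct and the split protein differ together from DMSO and cannot be told apart. Whether replicates are separate cultures is not labelled, so p-values reflect only the spread among these libraries, which may be technical.

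Csy4, also known as Cas6f, is a bacterial endoribonuclease that trims the transcript of a CRISPR array: it binds a short RNA hairpin and cuts the strand at the foot of the stem. Human transcripts are not its natural substrate. Dividing such an enzyme into fragments that come together only when a small molecule bridges them is meant to keep it inactive until the molecule is added. The comparison asks how transcripts differ between cells with the untriggered split form and cells with DMSO alone, and does not measure cutting by the enzyme. The level of the construct itself was not analysed here, and the share of transfected cells is not given in the sources used here.

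Library totals were 14695997 to 19095828 counts with DMSO and 13730138 to 16099315 with untriggered split Csy4. Replicate libraries were close to each other, with a median SD of 0.0604 in log2 CPM (read counts scaled to a common library total) among DMSO libraries and 0.066 among split Csy4 libraries, over 10136 genes. The line's identity was checked with marker genes. Of 10 markers of HEK-293 cells, 8 had enough counts to be tested, *NEFM* was at 0 in all 6 libraries, and their summed level was 439 to 443 CPM with DMSO and 501 to 524 CPM with split Csy4. Among these, *VIM* (0.23 on the log2 scale), *CDH2* (0.33) and *KRT18* (0.24) rose with split Csy4, the last without a call when split Csy4 replicate 2 or 3 was left out (adjusted p = 0.0612 and 0.0698). Fibroblast markers summed to 59.2 to 61.7 CPM with DMSO and 48.4 to 53.1 CPM with split Csy4, with 3 of 9 testable and *COL3A1* lower by a log2 fold change of -0.43. Blood cell markers summed to at most 5.03 CPM in any library, with *CD3E* and *HBB* at 0, and markers of epithelial carcinoma lines to at most 16.4 CPM, with *KRT5* at 0. Of the carcinoma markers *CLDN4*, a claudin with 18, 8 and 11 counts in the DMSO libraries and 6, 2 and 2 in the split Csy4 libraries, fell by 1.66, a call lost without DMSO replicate 1 or 3 or split Csy4 replicate 2 or 3 (adjusted p = 0.0622 to 0.149). The part of these shifts in the results below was not tested.

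Split Csy4 without its trigger was accompanied by changes in many transcripts, most of them small. Of 17966 tested genes, 5185 differed from DMSO (28.9%), 2650 of them higher (14.8%) and 2535 lower (14.1%), at an adjusted p below 0.05 in edgeR's quasi-likelihood test. The median size of a called change was 0.29 on the log2 scale, or 1.23-fold. Calls of at least 1.5-fold made up 5.18% of tested genes, and 43.1% of all calls were of changes under 1.2-fold. A change of at least 2-fold was found for 310 genes that rose (1.73% of tested genes) and 117 that fell (0.651%), and 29 and 13 of these reached 5 CPM in the higher group. The median log2 fold change of all tested genes was -0.003. Against a 1.2-fold change instead of no change, 812 genes were called.

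The calls were spread unevenly over expression levels. Among 2486 abundant genes (100 CPM or more on average over the 6 libraries), 1227 were called (49.4%), with a median size of 0.18 on the log2 scale. Among 2843 genes below 1 CPM, 204 were called (7.18%), with a median size of 1.82. Abundant transcripts were measured with a median standard error (SE) of 0.042 and the scarcest with 0.53, so that depth sets which sizes could be detected. Between 20 and 100 CPM 41.1% were called, so a list's share called depends on the level of its members. Lists below were not matched to genes of like level. Protein-coding genes were called in 4587 of 13469 cases (34.1%) and long non-coding RNAs in 378 of 2608 (14.5%). In bulk RNA, fewer cells with a transcript and less of the transcript per cell cannot be told apart, which holds for every change below.

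**Figure D1:**
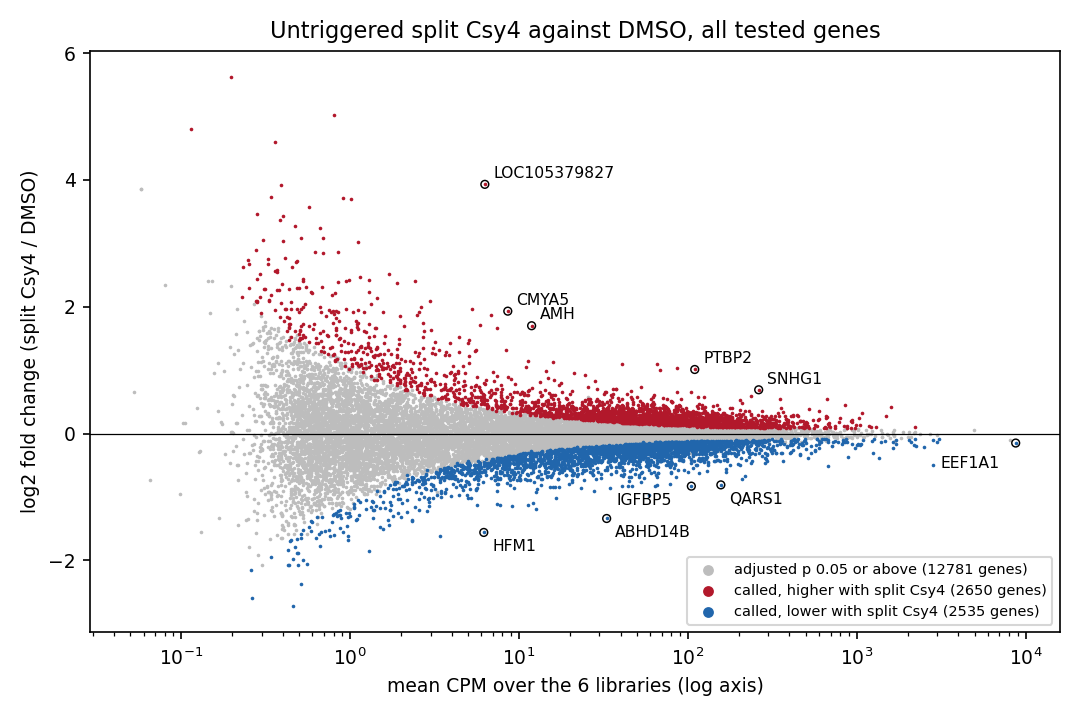
Each point is 1 of 17966 tested genes, placed by its mean level over the 6 libraries (CPM, log axis) and its log2 fold change of untriggered split Csy4 over DMSO. The 2650 genes called higher (red) and 2535 called lower (blue) lie mostly within 1 unit of 0, and *PTBP2* stands at the upper edge of the abundant transcripts.

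Among abundant transcripts, the largest rise was that of *PTBP2*, which encodes the neuronal relative of the polypyrimidine tract-binding splicing repressor (chromosome 1 from 96721784 to 96823739, GRCh38). Its level was 73.1, 71.4 and 73.8 CPM in the DMSO libraries and 146, 144 and 151 CPM in the split Csy4 libraries. The groups were far apart, with a 2.02-fold difference (log2 fold change 1.01 ± 0.05 (SE), adjusted p = 1.41e-27). No other gene as abundant, at a mean of 100 CPM or more, changed by 2-fold in either direction. *PTBP2* stood at 149 ± 7.05 CPM (SD, n = 3) with triggered split Csy4 and at 141 ± 6.23 CPM with full-length Csy4, against 71.7 ± 6.77 CPM with grazoprevir alone. The differences of the triggered and the full-length form from untriggered split Csy4 did not pass the test (adjusted p = 0.958 and 0.383).

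The next largest rises among abundant transcripts were smaller than 2-fold. *SNHG1*, a host of small nucleolar RNAs that share its locus, went from 204, 204 and 196 CPM to 326, 323 and 325 CPM (log2 fold change 0.69 ± 0.035). *PATL1*, a decapping activator, rose by 0.65, *DDX46*, an RNA helicase of the spliceosome, by 0.54, and *RPAP2*, a phosphatase of RNA polymerase II, by 0.57. The histone methyltransferase gene *KMT2D* rose by 0.59 and the corepressor gene *SPEN* by 0.54. In each of these genes all 3 split Csy4 libraries lay above all 3 DMSO libraries, which was a condition of their choice. Such a separation of the groups was found for 7299 tested genes (40.6%).

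The largest falls among abundant transcripts were also smaller than 2-fold. *IGFBP5*, a secreted binding protein of insulin-like growth factors, fell from 138, 135 and 132 CPM to 78.3, 73.7 and 75.2 CPM (log2 fold change -0.83 ± 0.05, adjusted p = 7.4e-24). *QARS1*, glutaminyl-tRNA synthetase, fell from 195, 198 and 207 CPM to 110.4, 119 and 113 CPM (-0.81 ± 0.043, adjusted p = 7.77e-27). Neither gene had overlapping libraries between the groups, which was a condition of their choice. *AHCYL1*, a regulator of inositol trisphosphate receptors, changed by -0.72, *TENM1*, a teneurin of the cell surface, by -0.67, and *SNRNP48*, a protein of the minor spliceosome, by -0.62. *SHMT2*, the mitochondrial serine hydroxymethyltransferase, changed by -0.61, and *SORD*, sorbitol dehydrogenase, by -0.60. *IGFBP5* stood at 55.1 ± 4.73 CPM (SD, n = 3) with full-length Csy4 and *QARS1* at 90.1 ± 2.52 CPM.

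Larger folds were found at low levels. *CMYA5*, a muscle scaffold protein, was at 3.39, 3.57 and 3.78 CPM with DMSO and at 12.7, 14 and 14.2 CPM with split Csy4. *AMH*, the anti-Müllerian hormone, went from 6.03, 4.88 and 5.84 CPM to 17.6, 20 and 17.3 CPM. Both are scarce in these cells, and no overlap of the groups was a condition of their choice. *DCAF4L1*, an intronless relative of *DCAF4* with which it may share reads, rose by 1.71 ± 0.18, and *UNC5CL*, a death-domain adaptor, by 1.53 ± 0.21. *LSMEM1* and *DRP2*, a relative of dystrophin, both rose by 1.31, *ANKAR* by 1.30, *FRMD3* by 1.29 and *IL12RB2*, a chain of the interleukin 12 receptor, by 1.28. *CCDC183* rose by 1.97 ± 0.23, but it overlaps its antisense RNA *CCDC183-AS1* (1.66 ± 0.15), and as the strand setting is not given, reads of these overlapping genes cannot be told apart. The highest rise among genes with at least 5 CPM in the higher group, singled out after its values were seen, was that of the long non-coding *LOC105379827* within the span of *CDC14A* (chromosome 1 from 100409136 to 100424072), which went from 0.9, 0.626 and 0.756 CPM to 12.9, 11 and 11.5 CPM.

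The largest falls were also of transcripts of low to moderate level. *ABHD14B*, a lysine deacetylase of the alpha/beta hydrolase family, was at 46.5, 51.5 and 44.6 CPM with DMSO and at 19.7, 18.7 and 17.8 CPM with split Csy4. *HFM1*, a DNA helicase of meiosis, fell from 9.1, 9.95 and 8.79 CPM to 2.87, 2.57 and 3.89 CPM. Every split Csy4 library was below every DMSO library for both, as the choice of these genes required. *RAB26*, a GTPase of vesicle traffic, changed by -1.61 ± 0.24, *LGALS3BP*, a secreted galectin-binding protein, by -1.19 ± 0.12, and *MELTF*, melanotransferrin, by -1.15 ± 0.14. *LHPP*, a phosphohistidine phosphatase, and *RDM1*, a protein with an RNA recognition motif, both changed by -1.13, *MFSD3* by -1.12, *HEXD*, a hexosaminidase, by -1.11 and *SCRN2* by -1.10. *ABHD14B* stood at 18 ± 1.24 CPM (SD, n = 3) and *HFM1* at 3.12 ± 1.09 CPM with full-length Csy4, and the difference of full-length from untriggered split Csy4 did not pass the test for either (adjusted p = 0.723 and 0.96).

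Targets of YAP and TEAD, the coactivator and transcription factors through which cells answer to shape and contact, rose in most cases. Of 15 tested genes of this list, 10 were higher and 1 was lower (73.3% called, against 28.9% of all tested genes). The median log2 fold change was 0.27 against -0.003 over all tested genes. *CCN2*, a matricellular protein, went from 6.83, 7.89 and 6.8 CPM with DMSO to 14.3, 16.1 and 14.3 CPM with split Csy4 (log2 fold change 1.05 ± 0.12, adjusted p = 8.59e-11). *ANKRD1*, a nuclear cofactor first known from heart muscle, went from 6.72, 6.95 and 7.69 CPM to 13.6, 16.7 and 16.7 CPM (1.15 ± 0.11, adjusted p = 2.42e-13). *AMOTL2*, an angiomotin that holds YAP back, went from 14, 13.8 and 15.1 CPM to 29.3, 27.9 and 26.3 CPM (0.96 ± 0.091). In these genes the split Csy4 libraries stood at about 2 times the DMSO libraries, with no overlap, as in 40.6% of tested genes. *LATS2*, a kinase that inhibits YAP, and *CCN1*, another matricellular protein, rose by 0.61 and 0.46 (both singled out after their values were seen), and *ARHGEF17* fell by 0.46.

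The windows before these gene starts are shown because *CCN2* and *ANKRD1* are the list's members with more than 1 copy of the core letters bound by TEAD factors. The motif searched was GGAATG, sought on both strands, which 14% of 35116 RefSeq promoter windows of 300 bases hold at least once and 1.37% at least 2 times. Of 15 windows that RefSeq gives for 11 of the 16 members, 7 held it (46.7%). Each window runs from 250 bases before the gene start to 50 after it, 5′ to 3′ on the gene's own strand (GRCh38.p14), with the motif in capitals. *CCN2* lies on the minus strand (window chr6:131951323-131951622) with 3 copies, and *ANKRD1* on the minus strand (window chr10:90921038-90921337) with 2.
CCN2: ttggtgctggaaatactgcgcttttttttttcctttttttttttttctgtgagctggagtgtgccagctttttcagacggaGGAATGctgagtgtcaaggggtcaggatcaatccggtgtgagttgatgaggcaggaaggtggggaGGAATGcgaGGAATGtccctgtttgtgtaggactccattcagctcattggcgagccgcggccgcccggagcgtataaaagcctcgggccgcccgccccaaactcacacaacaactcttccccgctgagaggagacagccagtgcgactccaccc
ANKRD1: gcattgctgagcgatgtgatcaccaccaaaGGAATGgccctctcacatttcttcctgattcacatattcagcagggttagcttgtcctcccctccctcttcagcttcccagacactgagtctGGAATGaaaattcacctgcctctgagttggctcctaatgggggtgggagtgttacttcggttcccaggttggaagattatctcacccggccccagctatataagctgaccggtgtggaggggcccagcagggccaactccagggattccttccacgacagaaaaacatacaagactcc
A match is only a run of letters: binding was not measured in these cells.

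Genes of TGF-beta and BMP signalling were higher more often than lower, though 7 of them passed in neither direction. Of 14 tested, 6 were higher and 1 was lower, and the list's median log2 fold change was 0.31. *ID3*, an inhibitor of basic helix-loop-helix factors and a direct BMP target, went from 42.4, 42.0 and 41.6 CPM to 83.2, 91.3 and 95 CPM (1.10 ± 0.057, adjusted p = 4.54e-27). *SMAD6*, an inhibitory SMAD of the BMP branch, went from 25.3, 25.9 and 27.3 CPM to 54.5, 56.0 and 56.3 CPM (1.09 ± 0.067). *SMAD7*, the other inhibitory SMAD, went from 12.9, 13.1 and 13.1 CPM to 22.2, 20.7 and 24.6 CPM (0.80 ± 0.099). All 3 genes were separated between the groups, as were 40.6% of tested genes. *ID1* rose by 0.60 and *ID2* fell by 0.18, so that the *ID* genes did not move as one. *ID1* was singled out, like *ID2*, after its values were seen.

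Genes that answer to growth factor signalling were higher more often than lower. Of 21 tested immediate early genes, the first transcription factors made after a stimulus, 12 were higher and 2 were lower. Called were 66.7%, against 28.9% of all tested genes, and the median was 0.28. *ATF3*, a stress-induced factor, went from 38.2, 40.6 and 39.0 CPM to 56.5, 54.9 and 55.6 CPM (0.50 ± 0.06), *IER2* rose by 0.50 and *FOS*, singled out after its values were seen, by 1.29. *MYC* went the other way, from 205, 210.0 and 206 CPM to 145, 149 and 148 CPM (-0.49 ± 0.041, adjusted p = 1.24e-16). Of 19 feedback genes of the MAP kinase pathway, 7 were higher and 1 was lower (42.1% called), with a median of 0.37. *ETV5*, an ETS factor induced by ERK signalling, went from 1.22, 0.689 and 1.31 CPM to 3.99, 3.75 and 4.46 CPM (1.92 ± 0.27), and its relative *ETV4* changed by -0.43. *SPRED2*, an inhibitor of RAS signalling, rose by 0.58 and *DUSP1*, a MAP kinase phosphatase, by 0.57.

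Among targets of p53, which the large T antigen of this line binds, more were higher than lower. Of 25 tested, 14 were higher, 1 was lower and 10 were neither, with a median of 0.19. *MDM2*, the ubiquitin ligase that degrades p53, went from 246, 233 and 248 CPM to 311, 298 and 316 CPM (0.35 ± 0.036, adjusted p = 1.58e-12), a change that did not pass against 1.2-fold. *AEN*, a nuclease of apoptosis, rose by 0.50 and *BAX*, a pore-forming protein of mitochondria, by 0.44. *GDF15*, a stress-induced cytokine singled out after its values were seen, was scarce: it had 7, 5 and 0 counts in the DMSO libraries and 23, 28 and 38 in the split Csy4 libraries (3.02 ± 0.41). *FDXR* was the member that fell (-0.33).

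Among chaperone genes, rises outnumbered falls. Of 22 tested heat shock genes, 11 were higher, 1 was lower and 10 were neither (54.5% called, against 28.9% of all tested genes). The list's median was 0.11. *HSPA1B*, an inducible HSP70, was at 695, 751 and 726 CPM with DMSO and at 989, 979 and 993 CPM with split Csy4 (0.45 ± 0.032, adjusted p = 1.63e-19). Its near-identical copy *HSPA1A* was at 26.5, 19 and 15.5 CPM and at 21.5, 28.7 and 41.5 CPM, groups that overlap (adjusted p = 0.124), and how reads were divided between the copies is uncertain. *BAG3*, a cochaperone, went from 36.4, 33.8 and 37.1 CPM to 54.4, 58.0 and 57.7 CPM (0.67 ± 0.065), and *HSPA4* rose by 0.35. *HSPA6*, a strictly inducible HSP70 singled out after its values were seen, had 7, 0 and 0 counts with DMSO and 28, 19 and 38 with split Csy4. Its 7 DMSO counts come from 1 library, without which the fitted log2 fold change moves from 3.70 to 7.82.

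The window before *HSPA1B* is shown because this gene had the smallest adjusted p of the list, and the window holds the core letters of the heat shock element. The letters searched, GAANNTTC, read the same on both strands. They are in 6.77% of the 35116 windows and in 14 of the 33 windows of the list's members (42.4%). The *HSPA1B* window lies on the plus strand (chr6:31827488-31827787) and holds 1 copy, in capitals.
HSPA1B: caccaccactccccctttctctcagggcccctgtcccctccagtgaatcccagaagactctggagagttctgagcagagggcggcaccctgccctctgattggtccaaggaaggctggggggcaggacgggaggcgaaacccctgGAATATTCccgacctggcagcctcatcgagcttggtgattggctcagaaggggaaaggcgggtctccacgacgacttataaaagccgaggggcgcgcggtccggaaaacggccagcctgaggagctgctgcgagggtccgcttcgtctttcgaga
*HSPA6* has 2 copies in its window, and *BAG3* and *HSPA4*, which also rose, have none in theirs. No match says only that the letters are not in this window.

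Other lists of protein quality control were mixed. Shares called were 58.1% for proteasome subunits, 55.0% for endoplasmic reticulum stress and 58.6% for lysosomes and autophagy, against 28.9% of all tested genes. Of 31 proteasome subunits, 15 were higher and 3 were lower (median 0.11), with rises of 0.31 for *PSMD12*, 0.28 for *PSMC2* and 0.26 for *PSMC1*. Of 20 genes of endoplasmic reticulum stress, 9 were higher and 2 were lower (median 0.06). *HSPA5*, the main chaperone of that compartment, went from 946, 966 and 938 CPM to 1185, 1189 and 1185 CPM (0.32 ± 0.029), *DNAJB11* rose by 0.42 and *HYOU1* changed by -0.25. Of 29 genes of lysosomes and autophagy, 13 were higher and 4 were lower (median 0.13). *MAP1LC3B*, which coats autophagosomes, went from 102, 100 and 104 CPM to 139.9, 137 and 141 CPM (0.45 ± 0.044), whereas the lysosomal hydrolase genes *HEXA* and *GLA* fell by 0.47 and 0.34. Among 18 NRF2 targets, 3 were higher and 3 were lower (33.3% called, against 28.9% of all tested genes). *HMOX1*, heme oxygenase, went from 17.9, 14.9 and 18.6 CPM to 29.6, 33.2 and 34.2 CPM (0.92 ± 0.09), while *PGD* and *TALDO1* of the pentose phosphate pathway fell by 0.32 and 0.22.

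Interferon-stimulated genes, the antiviral programme of the cell, were lower more often than higher. Of 26 tested interferon-stimulated genes, 2 were higher and 7 were lower, with a median of -0.15 (34.6% called, against 28.9% of all tested genes). *IFIT1*, which binds foreign RNA ends, went from 58.6, 61.2 and 57.4 CPM to 40.8, 43.2 and 49.0 CPM (-0.41 ± 0.063, adjusted p = 1.81e-07), *IFIT2* changed by -0.32 and *IFITM1* by -0.33. *IFIT1* and *IFIT2* share their span with *LIPA* in the annotation. Of 12 tested sensors, 4 were higher and 2 were lower. *DDX58*, the RNA sensor RIG-I, rose by 0.50 and *EIF2AK2*, the kinase PKR, by 0.25, and *IRF3* fell by 0.25. *CGAS*, the DNA sensor, had at most 3 counts in any of the 6 libraries, and *STING1* at most 12. Of 11 NF-kB targets and cytokines, 3 were higher and 3 were lower (54.5% called). *LIF* rose by 0.83, and *TRAF1*, *CCL5* and *CXCL10* changed by -1.31, -0.73 and -1.18. *CXCL10*, singled out after its values were seen, lost its call without split Csy4 replicate 2 (adjusted p = 0.0634).

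Genes of amino acid supply and translation fell more often than they rose. Of 28 ATF4 targets, the genes of the integrated stress response, 5 were higher and 10 were lower (median -0.08, 53.6% called). *PCK2*, a mitochondrial carboxykinase, fell from 36.1, 35.6 and 36.8 CPM to 22.7, 17.5 and 18.2 CPM (-0.90 ± 0.086, adjusted p = 7.63e-14). *SLC3A2*, the heavy chain of an amino acid exchanger, rose from 108, 102 and 115 CPM to 142, 147 and 146 CPM (0.42 ± 0.044). Of 20 aminoacyl-tRNA synthetases, 3 were higher and 10 were lower (median -0.08, 65.0% called), with *VARS1* at -0.50 and *EPRS1* at -0.27 after *QARS1*. Of 33 translation factors, 5 were higher and 12 were lower (median -0.06, 51.5% called). *EIF3L* fell from 410.4, 422 and 422 CPM to 299, 318 and 316 CPM. *EIF5* rose from 429, 466 and 465 CPM to 594, 588 and 603 CPM. Of 79 cytosolic ribosomal protein genes, 2 were higher and 20 were lower (median -0.05). The share called was 27.8%, against 28.9% of all tested genes and 49.4% of those at 100 CPM or more. The changes in *RPLP0* (-0.38), *RPS3* (-0.30) and *RPL13A* (-0.23) had the smallest adjusted p in the family. Pseudogenes with near-identical sequence make the counts of this family uncertain.

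Genes of central metabolism were lower more often than higher. Of 23 glycolysis genes, 1 was higher and 11 were lower (median -0.11). *PFKL*, the liver-type phosphofructokinase, went from 105, 106 and 111 CPM to 78.4, 81.9 and 81.5 CPM (-0.41 ± 0.049), *GPI* changed by -0.26 and *GAPDH* by -0.20. Of 18 hypoxia targets, 1 was higher and 8 were lower (median -0.19), with *P4HA1*, a collagen prolyl hydroxylase, at -0.45, *BNIP3*, a receptor of mitophagy, at -0.45 and *PDK1* at -0.37. Of 56 genes of the respiratory chain and ATP synthase, 4 were higher and 14 were lower (median -0.07), with *UQCRC2* at -0.40, *NDUFV1* at -0.36 and *ATP5F1C* at -0.32. The share called in this list was 32.1%, against 28.9% of all tested genes and 41.1% of those at 20 to 100 CPM. Of 19 mitochondrial carriers, 1 was higher and 9 were lower (median -0.14), with *SLC25A13* at -0.39, *SLC25A11* at -0.34 and *SLC25A3* at -0.16. Lipid synthesis was divided. Of 16 fatty acid genes 0 were higher and 6 were lower (median -0.14), among them *SREBF1* (-0.43), *ACSS2* (-0.31) and *SCD5* (-0.26), while of 24 genes of cholesterol synthesis 9 were higher and 4 were lower (median 0.07), among them *SC5D* (0.40) and *HMGCS1* (0.33). No fatty acid gene was higher at an unadjusted p below 0.05 in edgeR or called higher by DESeq2, a count of 0 in each. The call of *SCD5* was lost without DMSO replicate 2 (adjusted p = 0.0624) or split Csy4 replicate 3 (adjusted p = 0.0753).

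Genes of DNA replication were lower more often than higher. Of 35 tested, 3 were higher and 15 were lower (51.4% called, against 28.9% of all tested genes), with a median of -0.06. *CDC45*, part of the replicative helicase, fell from 81.7, 77.8 and 83.0 CPM to 51.7, 52.4 and 53.2 CPM (-0.62 ± 0.054, adjusted p = 1e-15). *POLA1*, the catalytic subunit of the primase-polymerase, went from 207, 206 and 189.6 CPM to 137, 141 and 131 CPM (-0.56 ± 0.042), and *ORC6* rose by 0.36. Of 28 mitosis genes, 5 were higher and 7 were lower (42.9% called). *TOP2A*, topoisomerase II alpha, went from 802, 821 and 774 CPM to 572, 543 and 563 CPM (-0.51 ± 0.031), *CDK1* changed by -0.25 and *BIRC5* by 0.21. Histone genes that are active in replication mostly make messages without a poly(A) tail, so that only a remainder is seen after poly(A) selection. Of 23 tested in that list 2 were higher and 4 were lower, with a median of -0.40, and the summed level of the list was 219 to 226 CPM with DMSO and 159 to 165 CPM with split Csy4. Among those that rose, *H2BC11* and *H3C6*, both under 3 CPM in each library, changed by 1.94 and 1.35. The share of histone genes called, 26.1%, was below the 28.9% of all tested genes. In triggered split Csy4 against grazoprevir alone the median of the histone list had the other sign, at 0.31.

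Factors that act on RNA were divided. Of 40 RNA decay factors, 10 were higher and 8 were lower (median 0.01), with *DCP1A*, a decapping activator, at 0.31, *RNASEH1* at 0.25 and *LSM7* at -0.39. Of 15 factors of nonsense-mediated decay, 8 were higher and 2 were lower (median 0.14). *SMG1*, a kinase of this pathway, rose by 0.21 and *UPF3B*, which links it to exon junctions, fell by 0.31. Of 19 SR splicing factors and their kinases, 9 were higher and 0 were lower (median 0.05), with *CLK4* at 0.35, *CLK3* at 0.32 and *TRA2A* at 0.23. Of 18 small RNA processing factors, 6 were higher and 1 was lower (median 0.05), with *RPP30*, a subunit of RNase P, at 0.44, *AGO3* at 0.39 and *AGO2* at 0.18. Of 30 ribosome biogenesis factors, 8 were higher and 7 were lower (median 0.02), with *RRP12* at 0.35, *BOP1* at -0.33 and *NOP56* at -0.30. Of 21 snoRNA hosts, 5 were higher and 6 were lower (median -0.06), with *ZFAS1* at 0.35 and *SNHG5* at -0.33 beside *SNHG1*. In the SR list, 0 genes were lower at an unadjusted p below 0.05 in edgeR and 0 were called lower by DESeq2.

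Actin genes and smaller lists complete the picture. Of 23 actin and SRF targets, 10 were higher and 1 was lower (median 0.09): *ACTB* went from 1319, 1359 and 1391 CPM to 1755, 1852 and 1838 CPM (0.42 ± 0.029), *ACTG1* rose by 0.27 and the myosin gene *MYH10* fell by 0.26. Of 16 circadian clock genes, 5 were higher and 0 were lower, also at an unadjusted p below 0.05 in edgeR or with DESeq2 (median 0.14), with *PER2* at 0.48, *NR1D2* at 0.25 and *PER1* at 0.25. Of 17 genes of the dystrophin complex and muscle scaffolds, 5 were higher, *CMYA5*, *DRP2* and *SGCB* (0.41) among them, and 4 were lower. Of 18 genes of dyneins and ciliary motors, 2 were higher and 3 were lower, with *DNAH1* at 0.86, *DYNC2I2* at -0.41 and *DYNC2H1* at -0.31. Of 11 Notch targets, 2 were higher and 2 were lower, with *NOTCH1* at 0.29, *HEY1* at 0.15 and *NRARP* at -0.35. Of 13 Wnt targets, 2 were higher, *RNF43* (0.45) and *CCND1* (0.11), and 0 were lower by the same tests. Of 7 metal response genes, 2 were higher, *MTF1* (0.26) and *SLC30A1* (0.23), and 1 was lower, *SLC39A10* (-0.27). Of 6 protocadherins, *PCDH7* rose by 0.15 and *PCDH9* fell by 0.15. Over all tested genes 28.9% were called, and 49.4% of those at 100 CPM or more. The share was 47.8% for actin and SRF targets, 52.9% for the dystrophin and scaffold list and 42.9% for metal response genes. It was 31.2% for clock genes, 27.8% for dyneins and ciliary motors, 36.4% for Notch targets, 15.4% for Wnt targets and 33.3% for protocadherins. Calls were lost when 1 library was left out for *PER1* (adjusted p up to 0.204), *CCND1* (0.172), *SLC30A1* (0.0656), *PCDH7* (0.13) and *PCDH9* (0.143).

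**Figure D2:**
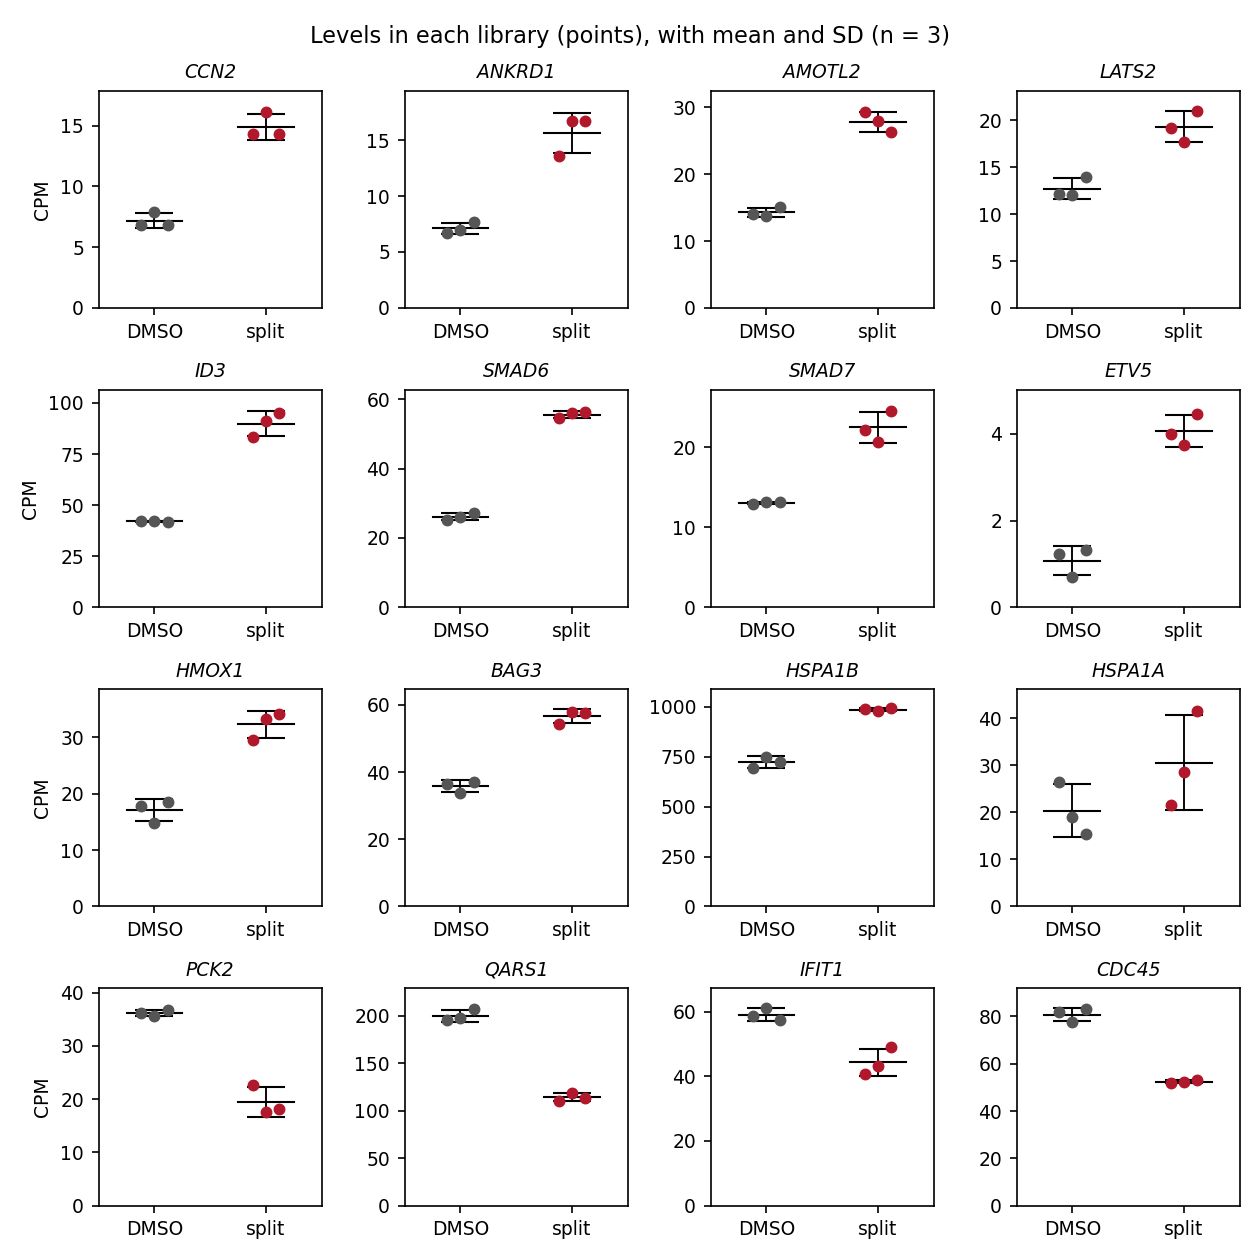
Points give the CPM of each of the 3 libraries per group for 16 genes, lines the mean and bars the SD, with every axis starting at 0. In *HSPA1A* the groups overlap, and in the other 15 genes every split Csy4 library lies on one side of every DMSO library. Such a separation was found for 40.6% of tested genes, and the genes shown were picked with their values known.

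The control genes were not exempt. Of 10 such genes, among them internal standards and the rapamycin partners *FKBP1A* and *MTOR*, 2 were higher (*ACTB*, 0.42, and *TBP*, 0.19) and 6 were lower. *FKBP1A* changed by -0.31, *MTOR* by -0.19, *EEF1A1* by -0.15 and *PGK1* by -0.13, beside *GAPDH*. *B2M* (0.07, adjusted p = 0.249) and *HPRT1* (-0.23, adjusted p = 0.0801) did not pass the test. *GAPDH* stood at 2369.5, 2403 and 2401 CPM with DMSO and at 2093, 2095 and 2069.7 CPM with split Csy4. The call of *TBP* was lost when any of 5 single libraries was left out, with adjusted p up to 0.106.

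The untriggered split form was next set against full-length Csy4, both with transfection and DMSO. Construct and protein differ together here, and neither construct level nor the share of transfected cells was compared, so differences cannot be assigned to the complete enzyme. This comparison and the one against DMSO share the split Csy4 libraries, and their values stand side by side without a test of likeness. Full-length Csy4 differed from untriggered split Csy4 in 5024 genes (28.0%), 2345 higher and 2679 lower. With scaling to library size alone the division was 3476 higher and 1652 lower. Of 25 p53 targets, 23 were higher with full-length Csy4 (median 1.01), where 13.1% of all tested genes were higher. *MDM2* differed by 1.71 ± 0.035. *PTBP2*, *CMYA5*, *SMAD6* and *SMAD7*, which had risen with the untriggered split form, did not pass the test between the 2 forms (differences of -0.06, 0.22, -0.11 and 0.04). *CCN2* was lower by 0.55 and *AMOTL2* by 0.31 with full-length Csy4, whereas *ANKRD1* was higher by 0.97.

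Few genes were called when the trigger was added. Grazoprevir itself and the triggered enzyme differ together in this comparison, which cannot tell them apart. Triggered split Csy4 differed from untriggered split Csy4 in 36 genes (0.2%), 35 higher and 1 lower (0.00557%). The count was 22 without untriggered split Csy4 replicate 2, 23 without its replicate 3, and 6 against a 1.2-fold change. The gene that was lower was *HSPA6*, at 1.91 ± 0.497 CPM (SD, n = 3) untriggered and 0.472 ± 0.0848 CPM triggered. Its call was lost without untriggered split Csy4 replicate 3 (adjusted p = 0.106) or triggered split Csy4 replicate 1 or 3 (0.098 and 0.0995). *ANKRD1* was at 15.7 ± 1.78 CPM untriggered and 25.7 ± 0.465 CPM triggered. At an unadjusted p below 0.05 there were 1400 genes (7.79%).

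Split Csy4 cells were also compared with cells without a construct where all received grazoprevir: triggered split Csy4 against grazoprevir alone. Here transfection and the triggered construct differ together. This pair shares no library with the comparison of untriggered split Csy4 and DMSO. It called 5775 genes (32.1%). Of the 5185 genes called without the trigger, 96.4% had the same sign here and 70.8% were called with the same sign, while 10 were called with the opposite sign. The larger changes were called again less often, but most were in scarce genes. Only 29 of those at least 2-fold higher and 13 of those lower reached 5 CPM in the higher group. The median SE was 0.29 at 1 to 5 CPM and 0.53 below 1 CPM. The part of level in these shares was not tested. Of the 310 genes at least 2-fold higher, 93.2% had the same sign and 55.5% were called with it. For the 117 at least 2-fold lower these shares were 84.6% and 30.8%. Over all tested genes, 76.0% had the same sign. The 3679 genes called in both are 71.0% of the calls without the trigger and 63.7% of the calls with it. *PTBP2* changed by 1.05 here, *CMYA5* by 1.85, *ID3* by 0.94, *ABHD14B* by -1.24, *HFM1* by -1.29 and *QARS1* by -0.87.

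**Figure D3:**
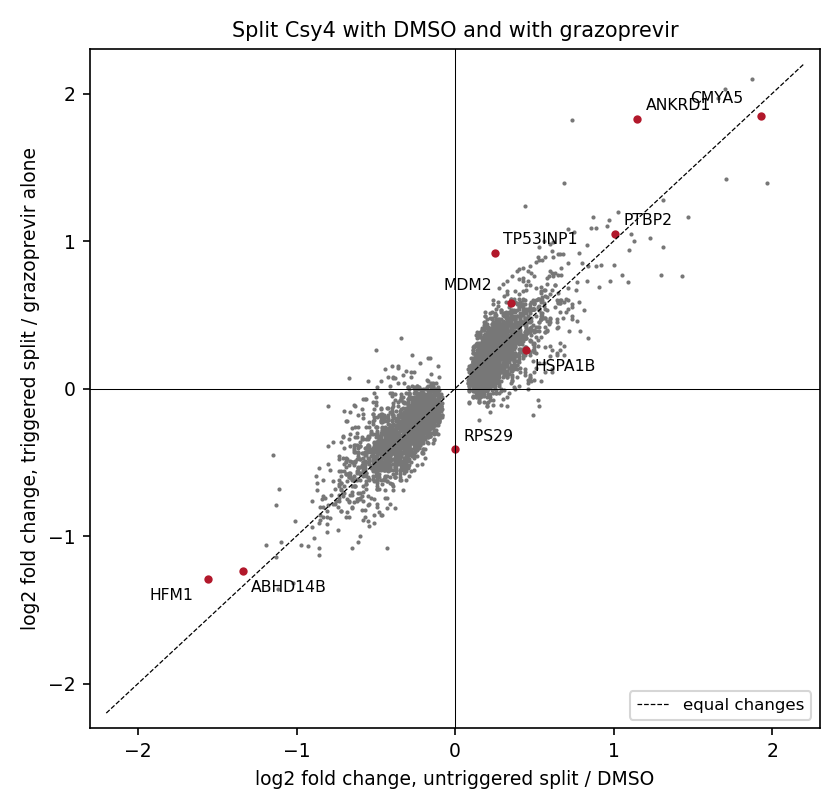
Each grey point is 1 of 4500 genes called in untriggered split Csy4 against DMSO with a mean of at least 5 CPM, placed by that log2 fold change and by the one of triggered split Csy4 against grazoprevir alone. The axes leave out 1 gene, named genes are red, *RPS29* is shown although it was not called, and *ANKRD1* and *TP53INP1* lie above the dashed line of equal change.

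The difference between these 2 comparisons was tested directly and was found in 63 genes (0.351%), 32 higher and 31 lower (0.173%) with grazoprevir. Of 79 ribosomal protein genes, 14 were among the lower ones. The family's own counts were 20 lower in untriggered split Csy4 against DMSO and 73 lower in triggered split Csy4 against grazoprevir alone. Between triggered and untriggered split Csy4, 0 of the 79 were higher and 0 were lower (median -0.06). *RPS29*, a protein of the small subunit singled out after its values were seen, was at 116 ± 0.186 CPM (SD, n = 3) with DMSO and 116 ± 0.821 CPM with untriggered split Csy4, and at 137 ± 11 CPM with grazoprevir alone and 103 ± 5.04 CPM with triggered split Csy4. The libraries of the pair with grazoprevir did not overlap. *TP53INP1*, a p53 target likewise singled out, rose by 0.25 without the trigger and by 0.92 with it, though the first of these calls was lost without split Csy4 replicate 3 (adjusted p = 0.0569). The count depends on single libraries: it was 14 without triggered split Csy4 replicate 1 and 141 without grazoprevir replicate 1, and of ribosomal proteins 2 and 23 were called lower in these fits.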

How the data were processed

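RNA sequencing of poly(A)-selected RNA gave 18 libraries in 6 groups of 3. The authors deposited whole-number counts per gene for all of them, made with cutadapt 1.9.1, HISAT2 2.2.1, HTSeq 0.6.1 and hg38 per the submitters' processing notes, which also name DESeq2 1.44.0. The strand setting and gene annotation are not given in the sources used here. The 3 rapamycin columns share a header and entered the fit only as a group.

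Counts were fitted in R 4.3.3 with edgeR 4.0.16: filterByExpr left 17966 of 59251 genes, TMM factors scaled the libraries, and a robust quasi-likelihood model of the 6 group means was fitted to all 18. Adjusted p-values are Benjamini-Hochberg over all tested genes, and a gene is called below 0.05. An SE is the size of the log2 fold change over the square root of its F statistic. CPM values use the TMM factors. Coordinates, promoter windows and gene types are from RefSeq on GRCh38.p14, and 58212 gene symbols matched.

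The 45 gene lists (1061 symbols, 5 matched through an older symbol) and the named genes were chosen with earlier results of these data known. Named were the 10 largest rises and falls with 5 CPM or more in the higher of the groups, without overlap, the 8 largest each way at a mean of at least 100 CPM, up to 3 called members per list with the smallest adjusted p, and control genes. Unnamed loci, antisense RNAs and pseudogenes were passed over. A few genes that the rule names are not reported here. Other names are said to be chosen after their values were seen. The alternatives were median-of-ratios factors, library size alone, no filter, 1 CPM in 3 libraries as the filter, only the groups compared, a 1.2-fold threshold (glmTreat), DESeq2 1.42.0, a replicate block and leaving out each library. The code was tested on simulated data. Replicate libraries differed by more than sampling noise, with chi-square per degree of freedom of 2.107 to 2.861. Intervals and SEs cover these libraries only.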

Additional observations from a re-analysis of the deposited data

Results flagged for a closer look

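For 5 of the genes named here, the effect of split Csy4 together with transfection differed between cells with DMSO and cells with grazoprevir. This was a test of the difference itself (edgeR, adjusted over all tested genes). *ANKRD1* rose by 1.15 on the log2 scale with DMSO and by 1.83 with grazoprevir, a difference of 0.68 ± 0.16 (SE, adjusted p = 0.0293). *TP53INP1* rose by 0.25 and by 0.92, a difference of 0.68 ± 0.1 (adjusted p = 4.69e-05). *MDM2* rose by 0.35 and by 0.58, a difference of 0.24 ± 0.051 (adjusted p = 0.0132). *HSPA1B* rose by 0.45 and by 0.26, a difference of -0.18 ± 0.046 (adjusted p = 0.0454). *RPS29* changed by 0.00 and by -0.41, a difference of -0.41 ± 0.067 (adjusted p = 0.000222).

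The sign of these differences was the same in all alternatives. The calls of *TP53INP1* and *RPS29* held in 19 of 20 alternatives, all but the test against a 1.2-fold change. That of *MDM2* was lost in 5 of 20, that of *HSPA1B* in 13 of 20 and that of *ANKRD1* in 11 of 19, most of them with 1 library left out. The difference of *ANKRD1* ranged from 0.59 to 0.74 over its alternatives, and that of *HSPA1B* from -0.22 to -0.16.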

How the results depend on the processing

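Named genes other than the controls were chosen from called genes of these data, so that their counts do not stand for other genes. Of 161 named genes 159 were called, and 0 changed sign under any of 8 other settings or with 1 library left out. Without single libraries 10 of them lost the call, and under settings other than the 1.2-fold test 5 did. Against a 1.2-fold change 77 lost it, so that for small changes the call says only that the groups differ.

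Tested against a 1.2-fold change, untriggered split Csy4 differed from DMSO in 812 genes, 395 higher and 417 lower, of which 175 and 50 by at least 2-fold. The same test gave 863 genes for full-length against split Csy4 (518 higher, 345 lower), 6 for the trigger (5 higher) and 1160 for the pair with grazoprevir (619 higher, 541 lower). For the difference between backgrounds it gave 1 gene, higher, and 0 lower, against 31 lower without the fold threshold and 46 with DESeq2 (1659 genes differed either way at an unadjusted p below 0.05). With library size alone, 1652 genes were lower with full-length Csy4. Genes lower with the trigger numbered 2 with a filter of 1 CPM or with no filter, and 4 with only the groups compared.

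With 1 library left out, untriggered split Csy4 differed from DMSO in 4262 to 4521 genes. The trigger count was 22 to 29 (21 to 26 higher, 0 to 3 lower), lowest without untriggered split Csy4 replicate 2. The difference between backgrounds was called in 14 to 141 genes, 12 to 76 higher and 2 to 65 lower. Beside the libraries named in the report, that count was 24, 37 and 38 without DMSO replicates 1, 2 and 3, 27 without grazoprevir replicate 2, 28 and 16 without untriggered split Csy4 replicates 2 and 3, and 25 without triggered split Csy4 replicate 2. The cause of these shifts was not tested.

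Deviations of same-numbered DMSO and split Csy4 libraries correlated at -0.128, -0.134 and -0.018, so the numbers were not taken as pairs. With the replicate number as a block, 4900 genes were called (2492 higher, 2408 lower) for split Csy4 against DMSO, and 3 genes were lower with the trigger. The medians of 7 lists, from -0.07 to 0.066, changed sign in 13 combinations of list and setting. Depth limits what could be seen below 1 CPM, where the SE was 0.53.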
